A study of Mus musculus with 6 samples.

Results

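Homeodomain transcription factors that mark regional identity in the brain were followed in the parvafox nucleus, a small cell group of the ventrolateral hypothalamus, and in the cerebral cortex and the hippocampus of the same mice. The list held 51 homeodomain genes, of which 50 were measured among the 22180 genes of the array. A gene was measured where a probe set (the group of array probes that reads a transcript) had exactly 1 gene symbol in the annotation, and the brightest such probe set over the 6 arrays stood for the gene. The remaining gene, Dlx1, shares its probe set with another symbol and was not analysed here. Each region was captured by laser from frozen sections of adult C57BL/6 mice without treatment or transgene, with 1 Affymetrix Mouse Gene 2.0 ST array for each of 3 regions in mouse 355 and in mouse 511, so n = 2 per region. The nucleus was located from adjacent sections stained with Vicia villosa lectin, which labels the nets around its parvalbumin neurons, and the pieces hold whole tissue with neurons, glia and vessels. The cortex samples came from the piriform and entorhinal cortex and the hippocampus samples from CA2 and CA3, according to the study's methods, and RNA was amplified before hybridization. Values are log2 signals after RMA normalization, on which a difference of 1 is a 2-fold change, and levels of different probe sets cannot be set against each other. Where 2 values are given for a region, mouse 355 comes first and mouse 511 second.

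The array medians lay between 3.54 and 3.68, and the mice correlated across probe sets at 0.954 (nucleus), 0.967 (cortex) and 0.972 (hippocampus). Xist was brighter in mouse 355 (6.39 to 6.98) than in mouse 511 (3.50 to 3.85), so the sex of the mice differed along with everything else between them. The regional markers separated the regions in part. Pmch, the precursor of melanin-concentrating hormone of the lateral hypothalamus, stood at 10.24 and 9.81 in the nucleus and at most 4.19 elsewhere, and Foxb1, which marks one cell population of the nucleus, had 5.82 and 4.15 there and at most 3.84 elsewhere. Hcrt, the orexin gene, did not separate the nucleus (3.74 and 2.73) from the other regions (2.94 to 3.54). Of 14 measured hypothalamic genes, 3 were 2-fold dimmer in the cortex than in the nucleus and 2 dimmer in the hippocampus of both mice. Slc17a7, the vesicular glutamate transporter of cortical and hippocampal neurons, was at 4.13 and 3.27 in the nucleus and between 9.51 and 9.96 in the other regions. Of 10 marker genes of CA2 and CA3 neurons, 0 were 2-fold brighter in the hippocampus than in the nucleus or the cortex of both mice, so these markers did not set the labelled subfield apart. Of the 8 genes of dentate granule cells, C1ql2 was 2-fold brighter in the hippocampus than in the nucleus of both mice (7.24 and 6.63, against at most 4.93 in the other regions) and Calb2 2-fold dimmer (4.15 and 6.59, against 7.23 and 8.43).

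Homeodomain proteins bind DNA through a helix-turn-helix fold of the homeodomain, most of them at sites around the letters TAAT. In the embryo their overlapping domains divide the forebrain into the cortex, the ganglionic eminences, the hypothalamus and the thalamus, and many stay on in adult neurons, where they maintain the identity of a cell type. Emx2 and Lhx2 act in the cortical primordium, Dlx genes in the ganglionic eminences and their GABAergic progeny, and Nkx2-1, Otp, Lhx1, Lhx5 and Hmx genes in parts of the hypothalamus.

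The promoters of 4 members are shown because these genes stood apart between regions in different ways and each has a single start in the RefSeq promoter table of build GRCm38.p6: Meis2, dimmest in the nucleus and brightest in the cortex, Emx2, brightest in the hippocampus, Nkx6-2, dimmest in the hippocampus, and Nkx2-2, brightest in the nucleus. Each window runs from 250 bases before to 50 bases after the start and is printed 5′ to 3′ on the gene's strand, with the capitals marking each TAAT or ATTA, the homeodomain core and its reverse complement. The windows lie at chr2:116064570-116064869 on the minus strand for Meis2, chr19:59458440-59458739 on the plus strand for Emx2, chr7:139582748-139583047 on the minus strand for Nkx6-2 and chr2:147186353-147186652 on the minus strand for Nkx2-2.
Meis2: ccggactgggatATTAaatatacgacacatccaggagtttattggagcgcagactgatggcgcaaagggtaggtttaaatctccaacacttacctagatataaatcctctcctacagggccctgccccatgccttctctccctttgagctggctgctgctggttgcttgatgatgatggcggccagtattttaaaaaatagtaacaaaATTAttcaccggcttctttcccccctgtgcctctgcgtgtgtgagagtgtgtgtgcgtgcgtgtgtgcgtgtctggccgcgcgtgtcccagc
Emx2: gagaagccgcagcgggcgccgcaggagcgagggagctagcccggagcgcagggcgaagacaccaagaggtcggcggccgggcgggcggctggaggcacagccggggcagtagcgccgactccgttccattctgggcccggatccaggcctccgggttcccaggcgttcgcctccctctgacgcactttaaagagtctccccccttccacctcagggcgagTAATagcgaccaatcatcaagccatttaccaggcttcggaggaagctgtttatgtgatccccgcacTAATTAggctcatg
Nkx6-2: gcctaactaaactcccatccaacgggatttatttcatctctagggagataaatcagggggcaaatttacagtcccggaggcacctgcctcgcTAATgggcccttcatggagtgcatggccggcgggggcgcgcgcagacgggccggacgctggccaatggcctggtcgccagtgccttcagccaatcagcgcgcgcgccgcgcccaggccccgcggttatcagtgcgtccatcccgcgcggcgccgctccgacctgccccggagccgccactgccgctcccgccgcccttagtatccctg
Nkx2-2: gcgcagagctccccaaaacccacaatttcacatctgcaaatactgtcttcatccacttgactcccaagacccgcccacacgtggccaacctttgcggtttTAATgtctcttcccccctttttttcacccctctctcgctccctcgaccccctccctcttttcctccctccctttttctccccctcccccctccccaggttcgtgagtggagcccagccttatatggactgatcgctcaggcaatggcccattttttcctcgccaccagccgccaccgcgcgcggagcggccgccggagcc
The cores numbered 2 in Meis2, 3 in Emx2, 1 in Nkx6-2 and 1 in Nkx2-2. In Emx2, 2 of the 3 overlap in the palindrome TAATTA. The table holds windows for 41 of the 51 members, 57 windows in all. TAATTA, which reads the same on both strands, stood in 4 of these 57 (7.02%) and in 5.29% of all 32851 windows. TAAT or ATTA stood in 52.6% of the members' windows and in 58.0% of all. The members' windows differed more in base composition. A GC content above 50% together with a ratio of observed to expected CpG above 0.6 was found in 63.2% of them and in 33.3% of all windows, and the median GC content was 59.0% against 52.7%. A match is a run of letters and not a bound site.

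Between regions, members of the list differed more often than genes at large, and more of them were brighter in the nucleus than dimmer there. The genes were listed with earlier results of these arrays known, so the shares that follow are a description and not a test. Both nucleus arrays lay above the other 4 arrays in 17 of the 50 members, 34.0% of them, while 10.7% of all genes did so. Both lay below the other 4 in 8 members, 16.0%, against 10.3% of all genes. Against the cortex, 25 members were higher in the nucleus of both mice by any amount (27.9% of all genes were) and 13 were lower (26.5%). Against the hippocampus, with which the comparison shares the nucleus arrays, 25 were higher (30.0%) and 14 were lower (26.6%). Between the cortex and the hippocampus, 20 were higher in the cortex (27.1%) and 13 were lower (24.5%). The median log2 fold change of the members was 0.23 against the cortex and 0.20 against the hippocampus, where the medians of all genes were 0.01 and 0.02. The median of the absolute change was 0.45 and 0.54 for the members and 0.20 and 0.21 for all genes. In bulk tissue, fewer cells of a type and less RNA per cell cannot be told apart.

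Past 2-fold in both mice, the lower members outnumbered the higher ones in the nucleus, as all genes did. At 1.5-fold the balance among the members was the reverse (7 higher and 3 lower than in the cortex, 12 higher and 7 lower than in the hippocampus). The share over all genes was not counted at 1.5-fold, so this reversal cannot be called particular to the members. With the study's limit of 2-fold applied within each mouse, 1 member was higher in the nucleus than in the cortex of both mice (Lhx5, with 0.415% of all genes past the limit) and 2 were lower (Dlx5 and Meis2, 0.956%). Against the hippocampus 1 member was higher (Nkx6-2, 0.987%) and 6 were lower (Lhx2, Dlx5, Emx2, Pou3f1, Prox1 and Hopx, 1.52%). Between the cortex and the hippocampus, Meis2 was higher in the cortex (0.307%), and Prox1 and Hopx were lower (0.198%). Against both regions at once, 0 members were 2-fold higher in the nucleus (0.216% of all genes) and 1, Dlx5, was lower (0.672%). Just outside the limit, Meis2 against the hippocampus had differences of -1.37 and -0.998, and just inside it, Lhx2 had -1.049 in mouse 355.

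**Figure D1:**
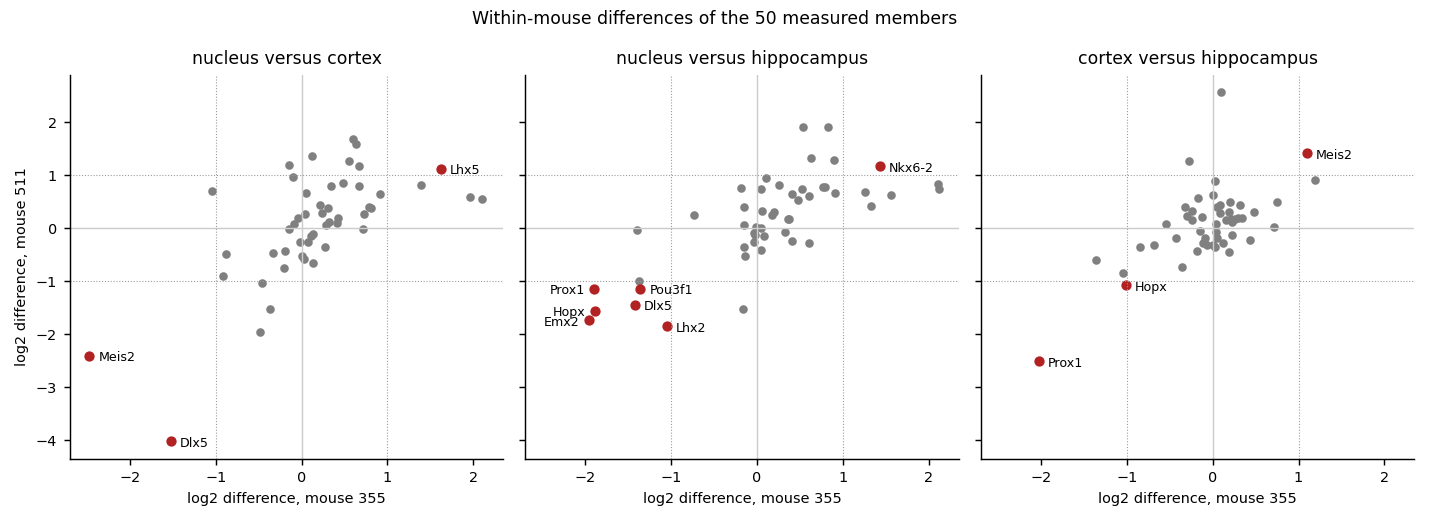
Log2 difference between 2 regions within mouse 355 (x axis) against that within mouse 511 (y axis) for the 50 measured members, in a panel for each pair of regions, with dotted lines at differences of 1 in size. Named red points are 2-fold apart in both mice. Of these, Dlx5 and Meis2 lie far below 0 for nucleus and cortex, and 6 members lie in the lower left for nucleus and hippocampus.

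No member passed the test over all probe sets. After limma with the mouse as a block and Benjamini-Hochberg adjustment, 0 of 50 members had an adjusted p under 0.05 in any of the 3 pairs of regions, where 0% of the 41345 probe sets did so for the nucleus against the cortex, 0.00242% (1 probe set, that of Pmch) for the nucleus against the hippocampus, and 0% for the cortex against it. Before adjustment, limma's p was under 0.05 and the signal higher in the nucleus than in the cortex in 12 members, 24.0% of them against 3.19% of all genes, and lower in 6, against 4.68% of all genes. Against the hippocampus the counts were 15 higher, 30.0% against 4.53%, and 6 lower, against 5.89% of all genes. Between cortex and hippocampus they were 3 higher, 6.00% against 2.03%, and 5 lower, 10.0% against 2.20%. These counts are a description, since the genes were listed with earlier results of these arrays known. Without the cortex array of mouse 511 fewer members of the first pair passed, and without either hippocampus array fewer of the second. The share over all probe sets fell as well, so these falls cannot be called particular to the members. Such fits leave 1 array in a region. These recounts were chosen after the adjusted counts were seen.

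Among the NK and LIM-homeodomain genes of the ventral forebrain and hypothalamus, all 4 NK genes were brighter in the nucleus than in both other regions of both mice. Nkx2-1 specifies the ventral hypothalamus and also the medial ganglionic eminence. Its signals were 5.12 and 3.91 in the nucleus, 3.02 and 3.36 for the cortex and 3.56 and 3.29 for the hippocampus. Only the nucleus of mouse 355 stood far above the rest. Against the cortex it was higher by 4.28-fold in mouse 355 and by 1.47-fold in mouse 511, with a fitted log2 fold change of 1.33 (SE 0.40, adjusted p = 0.572 in limma) against the cortex and 1.09 (SE 0.40, adjusted p = 0.508) against the hippocampus. Nkx2-2, which acts in ventral patterning and in oligodendrocyte differentiation, had signals of 6.45 and 5.29 in the nucleus, 5.06 and 4.47 for the cortex and 4.34 and 4.45 for the hippocampus. Its nucleus arrays were above the other 4, again further in mouse 355, and the log2 fold change was 1.11 (SE 0.34, adjusted p = 0.577 in limma) against the cortex and 1.48 (SE 0.34, adjusted p = 0.334) against the hippocampus. Its chromosomal neighbour Nkx2-4, a relative of Nkx2-1 in the hypothalamus, differed less, by 0.50 (SE 0.24) and 0.53 (SE 0.24).

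Nkx6-2, a factor of myelinating oligodendrocytes, followed another pattern. Its signals were 6.90 and 6.43 in the nucleus, 6.66 and 6.15 for the cortex and 5.47 and 5.25 for the hippocampus. The hippocampus arrays were below the other 4, and nucleus and cortex differed by no more than 0.28 in either mouse. The log2 fold change against the hippocampus was 1.30 (SE 0.19, adjusted p = 0.231 in limma) for the nucleus and 1.04 (SE 0.19, adjusted p = 0.98) for the cortex. Many oligodendrocyte markers moved with it. Of 11 measured, 7 were 2-fold higher in the nucleus and 4 in the cortex than in the hippocampus of both mice. Not all did: Pdgfra was lower in the nucleus than in the hippocampus (-0.26 and -0.22), and Olig2 lower in the cortex than there (-0.86 and -0.60). The mean signal of the list was 8.43 and 8.41 in the nucleus, 8.18 and 7.80 for the cortex and 6.68 and 7.16 for the hippocampus. The part of oligodendrocytes in the Nkx6-2 and Nkx2-2 values was not tested. Between nucleus and cortex, 0 of the 11 were 2-fold apart in both mice, nor was Nkx2-2 (2.62-fold and 1.76-fold higher in the nucleus). On the log2 scale Sox10 (-0.20 and 1.22), Cldn11 (0.24 and -0.15) and Pdgfra (-0.40 and 0.45) went opposite ways in the mice. The rest of the list was higher in the nucleus of both, from Mbp (0.01 and 0.43) to Mog (0.66 and 0.98).

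Lhx1 and Lhx5 are close relatives among the LIM-homeodomain genes, and Lhx5 is required for the mammillary hypothalamus. Lhx5 had signals of 4.47 and 3.91 in the nucleus, 2.85 and 2.79 for the cortex and 3.70 and 3.14 for the hippocampus. The nucleus was highest and the cortex lowest in each mouse, without overlap between any 2 regions. Signals were low, and both the cortex values and the mean over the 6 arrays (3.48) lay below the array medians (3.54 to 3.68). In the fit, the log2 fold change was 1.37 (SE 0.22, adjusted p = 0.394 in limma) against the cortex and 0.77 (SE 0.22, adjusted p = 0.421) against the hippocampus. For Lhx1 the nucleus read 5.66 and 4.12, the cortex 3.70 and 3.54, and the hippocampus 3.54 and 3.39. The nucleus was above the rest in both mice, further in mouse 355, with differences from the cortex of 1.96 and 0.58. The fitted change was 1.27 (SE 0.41, adjusted p = 0.584 in limma) against the cortex and 1.42 (SE 0.41, adjusted p = 0.415) against the hippocampus. Isl1, expressed in hypothalamic and striatal neurons, had nucleus signals of 4.88 and 4.69 with a change of 0.60 (SE 0.20) against the hippocampus and 0.25 (SE 0.20) against the cortex. Lmx1a, of midbrain and posterior hypothalamic neurons, differed by 0.35 (SE 0.19) and 0.27 (SE 0.19), and its relative Lmx1b by 0.31 (SE 0.19) and 0.00 (SE 0.19).

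The LIM-homeodomain genes of telencephalic and other neurons did not share this direction. Lhx2, a selector gene of the cortical primordium that also stays on in glia and neurons, read 6.10 and 5.22 in the nucleus, 6.47 and 6.74 for the cortex and 7.15 and 7.07 for the hippocampus. The regions did not overlap, and the order nucleus, cortex, hippocampus held in each mouse. On the log2 scale, the fitted change was -0.95 (SE 0.32, adjusted p = 0.60 in limma) against the cortex and -1.45 (SE 0.32, adjusted p = 0.329) against the hippocampus. Lhx6, which marks interneurons from the medial ganglionic eminence, was at 5.87 and 5.57 in the nucleus and between 5.83 and 6.19 elsewhere, a change of -0.40 (95% interval -0.89 to 0.09) against the cortex. Lhx8, of basal forebrain cholinergic neurons, was dim on every array (2.42 to 3.69). Lhx9, known from the thalamus and hypothalamus, went opposite ways in the mice, with 3.57 and 4.24 in the nucleus against 4.61 and 3.54 in the cortex.

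**Figure D2:**
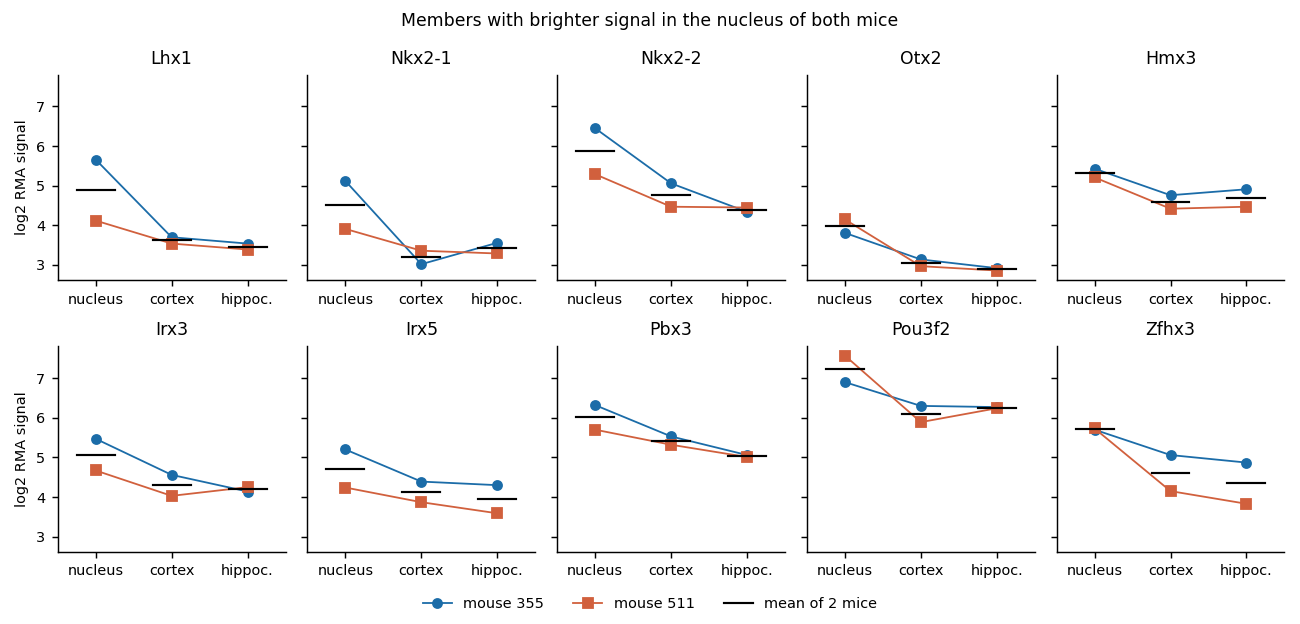
Log2 RMA signal (y axis, shared) of 10 members in the 3 regions (x axis), with circles for mouse 355, squares for mouse 511 and bars for the mean of the 2 mice. The genes were picked for display after their values were seen. In each panel the nucleus is the highest region of both mice, and for Lhx1 and Nkx2-1 the mice are further apart in the nucleus than in the cortex or hippocampus.

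Otx2, a factor of the forebrain and midbrain, was brighter in the nucleus of both mice, although its signals were low. They were 3.81 and 4.15 in the nucleus, 3.14 and 2.97 for the cortex and 2.92 and 2.86 for the hippocampus, with no overlap. The log2 fold change was 0.93 (SE 0.22, adjusted p = 0.514 in limma) against the cortex and 1.09 (SE 0.22, adjusted p = 0.305) against the hippocampus. Its relative Otx1 differed by 0.33 (95% interval -0.18 to 0.83) and 0.02 (95% interval -0.48 to 0.52). Hmx3 and Hmx2 lie next to each other on chromosome 7, with 0 protein-coding genes between them, and act together in the developing hypothalamus. Hmx3 read 5.43 and 5.21 in the nucleus, 4.76 and 4.42 for the cortex and 4.91 and 4.47 for the hippocampus, so the nucleus lay above the rest. Its change was 0.73 (SE 0.19, adjusted p = 0.534 in limma) against the cortex and 0.63 (SE 0.19, adjusted p = 0.432) against the hippocampus. Hmx2 differed by 0.08 (SE 0.22) and 0.13 (SE 0.22), and the difference between the genes was not tested.

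The TALE genes, whose homeodomain carries an extra 3-residue loop, split by gene. Irx3 and Irx5, neighbours on chromosome 8 in the Iroquois family, were both brighter in the nucleus. Irx3 read 5.47 and 4.67 there, 4.56 and 4.03 for the cortex and 4.14 and 4.25 for the hippocampus, with changes of 0.77 (SE 0.28, adjusted p = 0.619 in limma) and 0.88 (SE 0.28, adjusted p = 0.46). Its dimmer second probe set did not share the direction, with differences from the cortex of -0.23 and 0.60. Irx5 read 5.20 and 4.24 in the nucleus, 4.39 and 3.87 for the cortex and 4.30 and 3.59 for the hippocampus. The nucleus of mouse 511 was below the cortex of mouse 355, so the order held within mice only, and the changes were 0.59 (SE 0.21) and 0.78 (SE 0.21). The other neighbouring pair, Irx1 and Irx2 on chromosome 13, had changes of 0.43 (SE 0.32) and -0.27 (SE 0.27) against the cortex. Pbx3, a partner of Hox and Meis proteins, read 6.32 and 5.70 in the nucleus, 5.53 and 5.32 for the cortex and 5.06 and 5.01 for the hippocampus. Its arrays fell in the order nucleus, cortex, hippocampus without overlap, with a change of 0.98 (SE 0.23, adjusted p = 0.333 in limma) against the hippocampus.

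Meis2, the TALE partner expressed in striatal projection neurons and other telencephalic cells, differed in the other direction. It read 5.37 and 6.06 in the nucleus, 7.84 and 8.47 for the cortex and 6.74 and 7.06 for the hippocampus. The cortex was highest, the hippocampus intermediate and the nucleus lowest, and no 2 regions overlapped. The cortex was 5.56-fold above the nucleus in mouse 355 and 5.30-fold in mouse 511. The log2 fold change of the nucleus was -2.44 (SE 0.20, adjusted p = 0.236 in limma) against the cortex and -1.19 (SE 0.20, adjusted p = 0.263) against the hippocampus, and the cortex exceeded the hippocampus by 1.25 (SE 0.20, adjusted p = 0.98). The striatal markers had a high mean on the cortex array of mouse 511 alone (8.04, against 5.30 to 6.14 on the other arrays). Without that array the difference of Meis2 from the cortex was -2.38, and the part of striatal cells in its values was not tested. Meis1 was low throughout (3.19 to 3.71), with a change of -0.14 (95% interval -0.67 to 0.38) against the cortex.

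**Figure D3:**
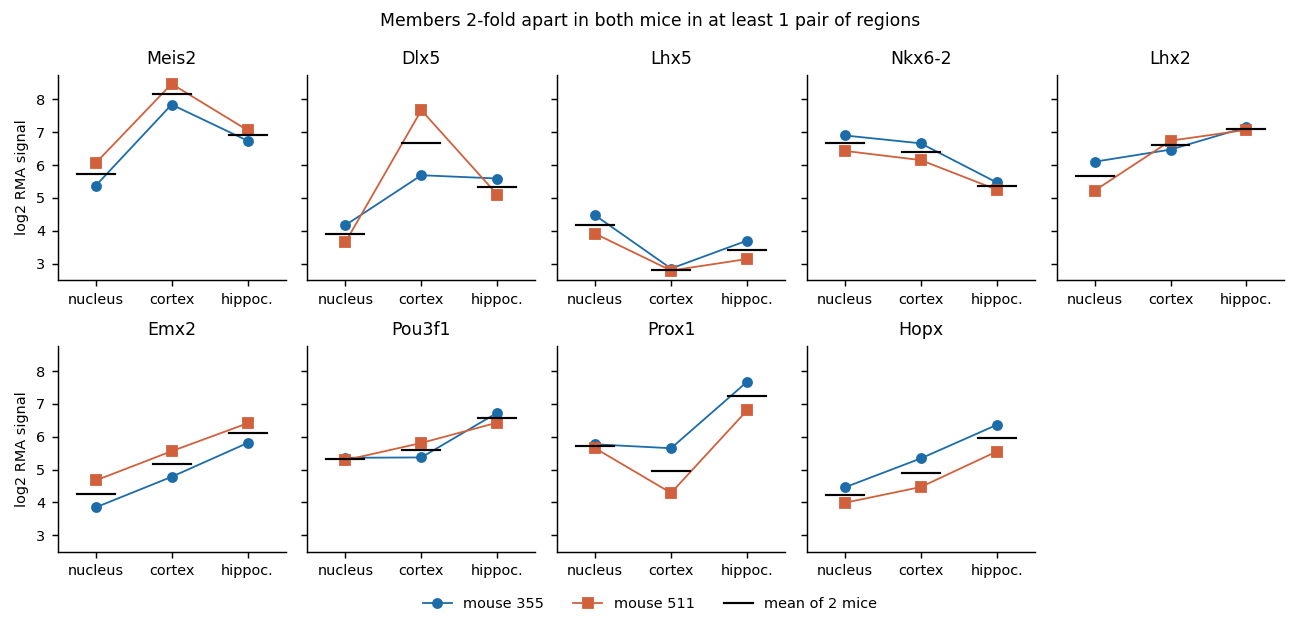
Log2 RMA signal (y axis, shared) of the 9 members that were 2-fold apart in both mice in at least 1 pair of regions, by region (x axis), with circles for mouse 355, squares for mouse 511 and bars for the mean of the 2 mice. Meis2 and Dlx5 peak in the cortex, Emx2, Hopx, Lhx2, Pou3f1 and Prox1 in the hippocampus, and Lhx5 in the nucleus.

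Dlx5 and Dlx6, adjacent on chromosome 6, act in GABAergic neurons of the ganglionic eminences and in the interneurons that leave them. Dlx5 was at 4.17 and 3.65 in the nucleus, 5.69 and 7.67 for the cortex and 5.59 and 5.10 for the hippocampus. The nucleus was below the other 4 arrays, and the cortex of mouse 511 stood above that of mouse 355. In the fit, the log2 fold change was -2.77 (SE 0.68, adjusted p = 0.524 in limma) against the cortex, or -1.52 without the cortex array of mouse 511, and -1.43 (SE 0.68, adjusted p = 0.598) against the hippocampus. Dlx6 read 3.86 and 3.71 in the nucleus, 4.34 and 5.67 for the cortex and 4.02 and 5.23 for the hippocampus. It too was lowest in the nucleus, by -1.22 (SE 0.42, adjusted p = 0.60 in limma) against the cortex, most of it from mouse 511 (-0.48 and -1.97). Dlx2, an earlier-acting relative, was level between regions (5.20 to 5.63), with a change of -0.04 (95% interval -0.66 to 0.58) against the cortex.

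Most markers of GABAergic neurons were lower in the nucleus, as Dlx5 and Dlx6 were, while striatal markers went with them only in part. Of 9 measured genes of GABAergic neurons, compared with the nucleus, 8 were 2-fold higher in the cortex and 7 in the hippocampus of both mice, with list means of 5.71 and 5.30 in the nucleus, 7.75 and 7.76 for the cortex and 7.40 and 7.78 for the hippocampus. The striatal list, 9 genes measured, was high in the cortex of mouse 511 alone, at a mean of 8.04 against 5.30 to 6.14 on the other arrays. Drd1, the dopamine receptor of striatal projection neurons, was 8.33 there, 5.28 in the hippocampus of the same mouse and at most 3.79 on the other 4. In mouse 355 the list mean was 5.71 in the cortex and 6.10 in the nucleus, and single genes went both ways. Drd1 was at 3.79 in both, Pde10a was higher in the cortex (6.14 against 5.38) and Penk was lower (7.47 against 8.89). Dlx5 was 2.86-fold higher in the cortex than in the nucleus of that mouse. Compared with the hippocampus, 3 of the 9 striatal genes were 2-fold higher in the nucleus of both mice and 0 were lower, whereas Dlx5 was lower. The part of either cell type in the Dlx values was not tested.

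Emx2, Prox1, Hopx and Pou3f1 were all brightest in the hippocampus. Emx2, required for the growth of the hippocampus and the medial cortex, read 3.85 and 4.67 in the nucleus, 4.78 and 5.56 for the cortex and 5.81 and 6.41 for the hippocampus. Regions were stepped in the same order in both mice, with mouse 511 above mouse 355 in each region. On the log2 scale, the fitted change was -0.91 (SE 0.19, adjusted p = 0.473 in limma) against the cortex and -1.85 (SE 0.19, adjusted p = 0.161) against the hippocampus. Emx1, its relative in cortical pyramidal neurons, was low (3.62 to 4.47) and changed by -0.27 (95% interval -0.97 to 0.44) against the cortex. Hopx, a homeodomain-only protein that does not bind DNA and is known from neural stem cells and astrocytes, read 4.46 and 3.99 in the nucleus, 5.34 and 4.47 for the cortex and 6.36 and 5.55 for the hippocampus. It had the same order as Emx2, with -0.68 (SE 0.21, adjusted p = 0.572 in limma) and -1.73 (SE 0.21, adjusted p = 0.19). The 10 astrocyte markers had list means of 7.79 to 8.36 with no region apart, and Gfap was at 6.69 and 7.38 in the nucleus, 5.86 and 6.02 for the cortex and 8.54 and 7.28 for the hippocampus. Gfap was the only 1 of the 10 to be 2-fold lower in the cortex than in the hippocampus of both mice, as Hopx was. Between nucleus and cortex Gfap differed by 0.83 and 1.36 and Hopx in the other direction, by -0.88 and -0.48. The part of astrocytes in the Hopx values was not tested. Of 10 measured markers of cortical and hippocampal excitatory neurons, compared with the nucleus, 9 were 2-fold higher in the cortex and 10 in the hippocampus of both mice, and their part in the Emx2, Lhx2 and Hopx values was not tested.

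Prox1, a Prospero homeodomain factor of dentate granule cells and of some interneurons, read 5.77 and 5.65 in the nucleus, 5.65 and 4.29 for the cortex and 7.67 and 6.80 for the hippocampus. The hippocampus was above the other 4 arrays, and nucleus and cortex were close in mouse 355. The nucleus differed from the hippocampus by -1.52 (SE 0.34, adjusted p = 0.326 in limma), and the cortex by -2.26 (SE 0.34, adjusted p = 0.98). C1ql2 moved with it, as described before, but of the 8 genes of the dentate list 1 was 2-fold higher and 1 lower in the nucleus than in the hippocampus of both mice, and the list means were 5.05 and 4.94 in the hippocampus against 3.92 to 4.61 elsewhere. The part of granule cells in the Prox1 values was not tested. Pou3f1, also called Oct6, was at 5.36 and 5.29 in the nucleus, 5.37 and 5.81 for the cortex and 6.73 and 6.43 for the hippocampus. Only the hippocampus stood apart, by -1.25 (SE 0.25, adjusted p = 0.305 in limma) for the nucleus and -0.99 (SE 0.25, adjusted p = 0.998) for the cortex.

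**Figure D4:**
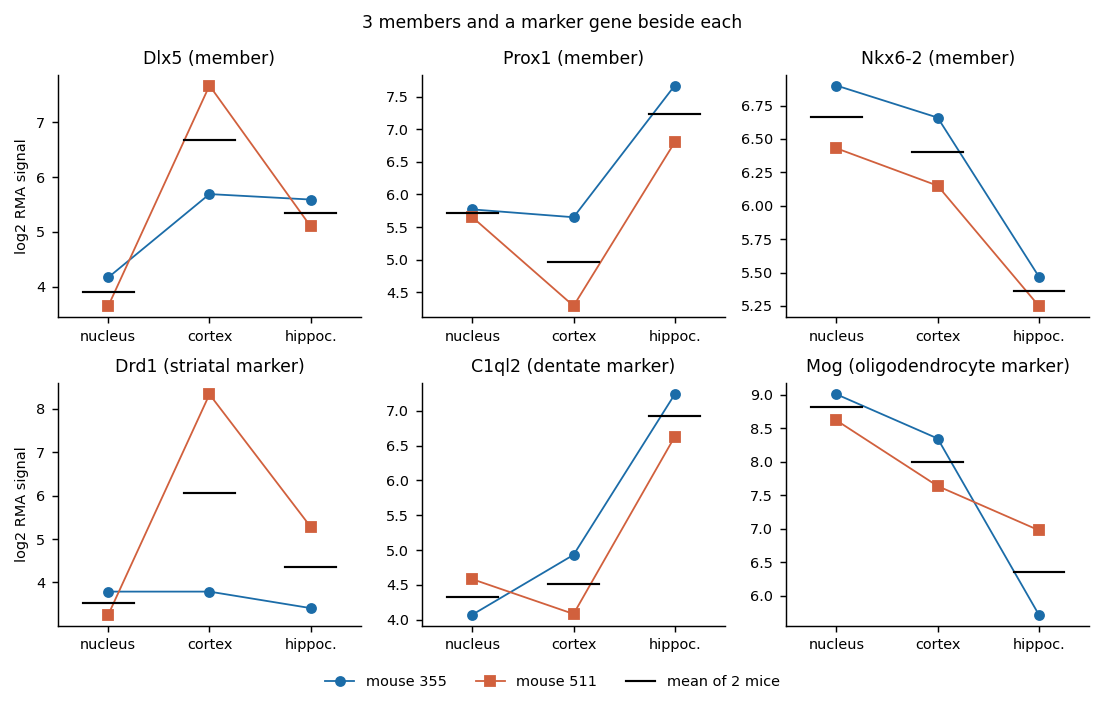
Log2 RMA signal (y axis, its own scale in each panel) of Dlx5, Prox1 and Nkx6-2 in the top row and of Drd1, C1ql2 and Mog below them, by region (x axis), with circles for mouse 355, squares for mouse 511 and bars for the mean of the 2 mice. Drd1 is high in the cortex of mouse 511 alone, C1ql2 is high in both hippocampus arrays as Prox1 is, and Mog is lowest in the hippocampus as Nkx6-2 is.

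Among the other POU genes, Pou3f2, Pou3f4 and Pou4f1 were brightest in the nucleus of both mice. Pou3f2, or Brn2, needed for the neuroendocrine neurons of the hypothalamus, read 6.90 and 7.57 in the nucleus, 6.30 and 5.89 for the cortex and 6.27 and 6.24 for the hippocampus. The nucleus was above the other 4 arrays, by more in mouse 511, and the log2 fold change was 1.14 (SE 0.31, adjusted p = 0.546 in limma) against the cortex and 0.98 (SE 0.31, adjusted p = 0.455) against the hippocampus. Its relative Pou3f4 read 4.83 and 5.76 in the nucleus and between 3.86 and 4.49 elsewhere, with a change of 1.22 (SE 0.36, adjusted p = 0.425 in limma) against the hippocampus. Pou3f3 was level (6.83 to 7.55), and Pou4f1, a factor of the habenula, was below the array median on all 6 arrays, at 3.43 and 3.09 in the nucleus and 2.91 to 3.11 elsewhere. Mouse 511 exceeded mouse 355 in the nucleus for both Pou3f2 and Pou3f4, the reverse of Lhx1, Nkx2-1 and Nkx2-2.

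Zfhx3, a zinc finger homeodomain factor that is high in the suprachiasmatic nucleus, was at 5.70 and 5.73 in the nucleus, 5.06 and 4.15 for the cortex and 4.87 and 3.83 for the hippocampus. Its nucleus signals were close between the mice, and the other 4 arrays were lower. The log2 fold change was 1.11 (SE 0.33, adjusted p = 0.565 in limma) against the cortex and 1.36 (SE 0.33, adjusted p = 0.341) against the hippocampus. Zfhx4 was above the rest in the nucleus by less, with 0.35 (SE 0.24) and 0.54 (SE 0.24), and Onecut2, a Cut factor, with 0.56 (SE 0.26) and 0.52 (SE 0.26). Cux1, known with Cux2 from the upper cortical layers, was at 6.45 and 6.47 in the nucleus, 6.41 and 6.20 for the cortex and 5.66 and 5.70 for the hippocampus, which stood apart by 0.78 (SE 0.19, adjusted p = 0.359 in limma). The second probe set of Cux1, at 2.40 to 2.68, did not show it. Cux2 changed by -0.01 (95% interval -0.49 to 0.47) against the cortex and Satb1 by -0.32 (SE 0.20).

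Several genes of hypothalamic territories in the embryo had intervals that spanned 0. Otp, a factor of neuroendocrine and lateral hypothalamic neurons, lay between 4.82 and 5.29 on all arrays, with a change of 0.17 (95% interval -0.45 to 0.78) against the cortex. Six3 and Six6, of the anterior hypothalamus, changed by -0.01 (95% interval -0.53 to 0.50) and 0.01 (95% interval -0.54 to 0.56), and Six6 was below the array median throughout. Vax1 was lowest in the nucleus (4.34 and 3.99, against 4.35 to 4.74) with a change of -0.47 (SE 0.22). Gbx2, of the thalamus, changed by -0.09 (SE 0.22) and Pax6 by -0.08 (SE 0.20). Barhl1, of the mammillary and subthalamic region, read 3.70 and 3.57 in the nucleus against 2.72 to 3.22 elsewhere. Its interval against the cortex did not span 0, with a change of 0.67 (SE 0.20, 95% interval 0.14 to 1.20, adjusted p = 0.572 in limma). Barhl2 was high in the nucleus of mouse 511 alone (5.45, against 4.26 to 4.72). Over the list, 25 of the 50 members spanned less than 1 over the 6 arrays and 8 spanned more than 2. The share over all genes was not counted for these spans, so they cannot be called particular to the members.

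**Figure D5:**
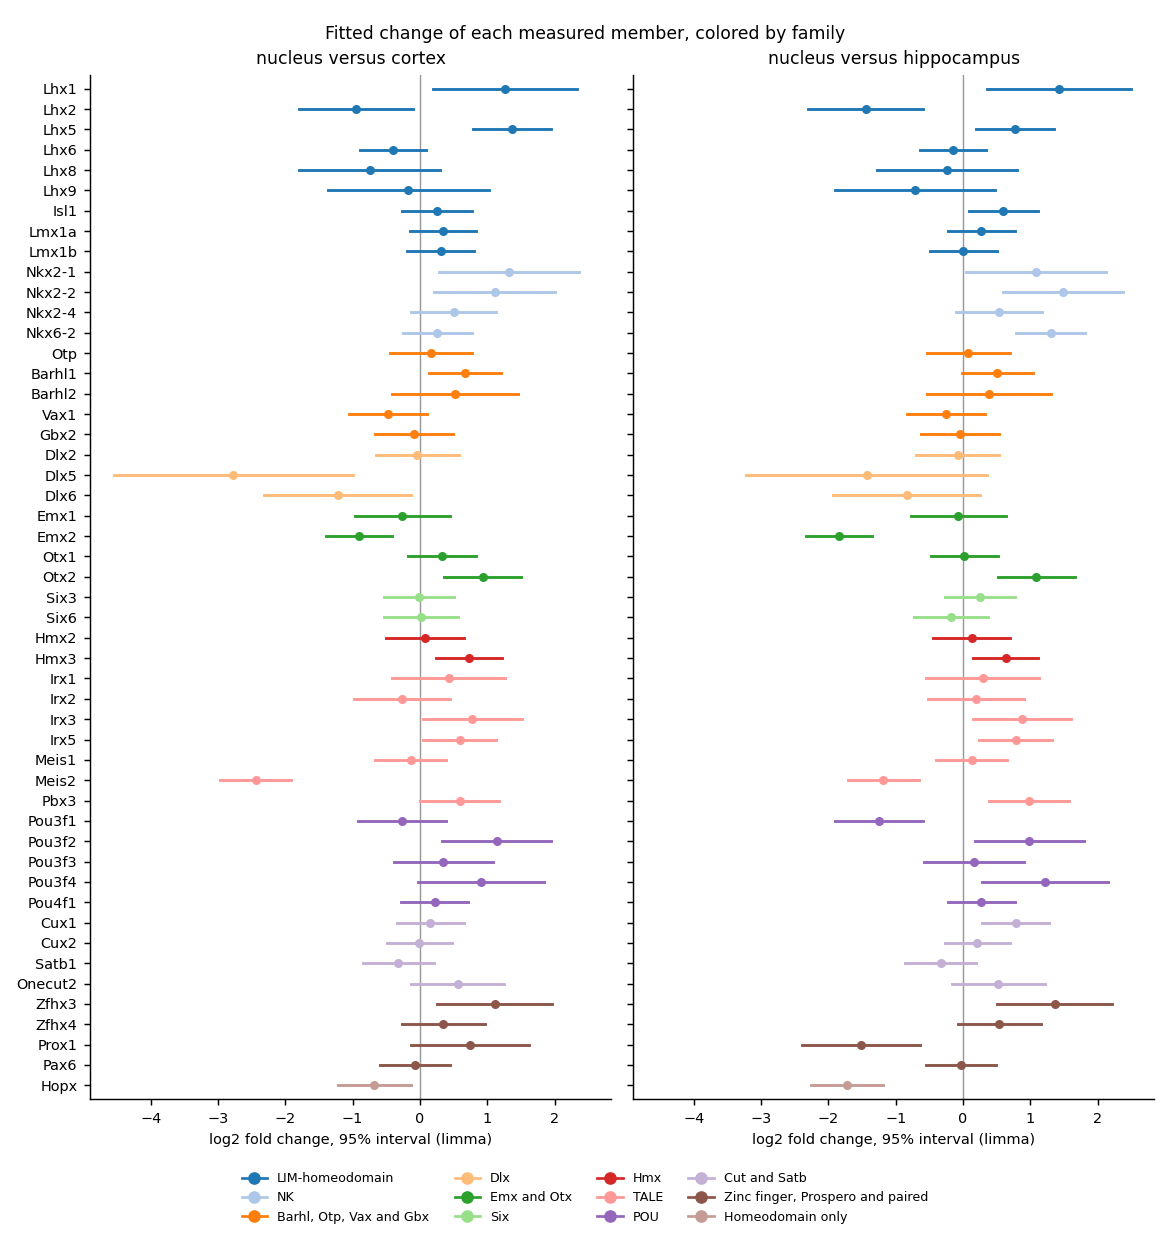
Log2 fold change from limma (points) with its 95% interval (lines) for each of the 50 measured members, by gene (y axis) and colored by family, for the nucleus against the cortex (left) and against the hippocampus (right), on 1 scale (x axis). The points of the NK genes and Pou3f2 lie to the right of 0 in both panels and those of Meis2, Emx2 and Hopx to the left. The intervals of Nkx2-4 span 0 in both panels, and that of Nkx6-2 spans 0 in the left panel.

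Of 122 further homeodomain genes 103 were measured, and 0 of them were 2-fold higher or lower in both mice in any pair of regions. Of all genes, 0.198% to 1.52% were, by pair and direction. With the cortex as reference, limma's unadjusted p was under 0.05 in 4 that were higher in the nucleus (3.88%, against 3.19% of all genes). It was so in 3 that were lower (2.91%, against 4.68%). With the hippocampus as reference, 2 were higher (1.94%, against 4.53%) and 2 were lower (1.94%, against 5.89%). All had an adjusted p above 0.05, and the shares differed from those of all genes by a few genes only. Both nucleus arrays were above the other 4 in 10 of them, 9.71%, near the 10.7% of all genes. Among these were Uncx and Bsx, named here after their values were seen. Uncx, a paired-type homeodomain factor, was at 4.70 and 4.57 in the nucleus, 3.71 and 3.35 for the cortex and 3.64 and 3.59 for the hippocampus. It fell just short of 2-fold in 1 mouse of each pair, with 1.99-fold and 2.33-fold against the cortex and 2.09-fold and 1.98-fold against the hippocampus, and fitted changes of 1.10 (SE 0.19, adjusted p = 0.418 in limma) and 1.02 (SE 0.19, adjusted p = 0.285). Bsx, a factor of hypothalamic neurons, was at 5.00 and 4.80 in the nucleus against 3.55 to 4.29 elsewhere. The median signal of these genes was 3.90, against 4.70 for the members and 4.31 for all genes, and the part of this difference in the counts was not tested. Of 21 cofactors, 0 were 2-fold higher in the nucleus of both mice than in the cortex (0.415% of all genes) or the hippocampus (0.987%). Lmo4, a LIM-only protein of cortical neurons that competes for the partner Ldb1, was lower there than in both regions, at 7.42 and 7.39 against 8.43 to 9.23, with changes of -1.40 (SE 0.28, adjusted p = 0.457 in limma) and -1.82 (SE 0.28, adjusted p = 0.238). Dach1, a partner of Eya proteins, was at 5.63 and 5.33 in the cortex and between 3.56 and 3.96 elsewhere, and Ldb2 was lower in the nucleus (8.58 and 7.61) than in the hippocampus (9.80 and 9.47).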

How the data were processed

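Laser-captured tissue of 3 regions from 2 mice was hybridized to 6 arrays. The authors normalized the arrays with RMA in Affymetrix Expression Console and deposited log2 values of 41345 probe sets, 190 of them controls. The submitters' notes also name R 2.14.2, limma and Partek. The genome build behind the array annotation is not given in the sources used here. Of the probe sets, 23521 carry 1 gene symbol in the annotation and 1820 carry several. Of 22180 genes, 1082 had more than 1 probe set and were represented by the brightest.

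Regions were compared with limma 3.58.1 in R 4.3.3 over all 6 arrays and all probe sets, with region and mouse as terms, 2 residual and 2.769 prior degrees of freedom, two-sided tests and Benjamini-Hochberg adjustment at 0.05. The mouse was a block because the regions come from the same animals, as the labels give, and the mouse differences of 2 regions correlated at 0.079, 0.059 and 0.06. The p-values rest on the spread of 2 mice. The procedure was tested on simulated data. All 51 members were matched in the RefSeq gene table. Values are given in full for members 2-fold apart in both mice in at least 1 pair of regions, and for others that were chosen after their values were seen. Of other homeodomain genes up to 10 and of cofactors up to 4 with the largest differences past 2-fold were to be named. The members and lists were chosen with earlier results of these data known. Figures were made in Python 3.11.15 with matplotlib 3.10.9.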

Additional observations from a re-analysis of the deposited data

Results flagged for a closer look

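Lhx9 differed in opposite directions between the mice. The nucleus minus cortex difference was -1.04 on the log2 scale in mouse 355 and 0.70 in mouse 511, and the difference between the mice was not tested. Over all genes, 351 of 22180 (1.58%) differed oppositely by at least 1.5-fold in each mouse for the same regions.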

How the results depend on the processing

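The log2 fold changes of the members 2-fold apart in both mice, 13 values over the 3 pairs of regions, kept their direction in all 181 refits under 14 alternatives, and none passed the adjusted threshold (lowest adjusted p 0.0521 in limma). These were no replicate block, a random block for the mouse, leaving out each of the 6 arrays, probe sets of 1 symbol, probe sets above the median, cyclic loess, median centring, an intensity trend and the mean over a gene's probe sets. The count of members past the adjusted threshold was 0 in all of them. Without the replicate block, in the unpaired fit, 13 members against 18 had an unadjusted p under 0.05 for nucleus and cortex (a count added after seeing the data). Over all probe sets the shares were 7.413% and 7.887%. The block changed no adjusted call of a member. Counts of members past 2-fold were small and moved easily. The recounts that follow were made for the members only, without the share over all genes. With a limit of 1.5-fold they were 7 higher and 3 lower in the nucleus than in the cortex, 12 higher and 7 lower than in the hippocampus, and 2 higher and 4 lower in the cortex than in the hippocampus. With 1 mouse alone they ranged from 4 to 7 and from 3 to 5 for higher and lower against the cortex, from 5 to 6 and from 7 to 8 against the hippocampus, and from 2 to 3 and from 2 to 4 between cortex and hippocampus. Among members above the median mean signal, 0 were higher in the nucleus than in the cortex, since Lhx5 lies below it. Leaving out 1 array at a time moved Dlx5 against the hippocampus between -2.07 (without the nucleus of mouse 355) and -0.80 (without that of mouse 511). Low signal limits Lhx8, Six6 and Pou4f1 most, and 2 mice limit every comparison.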
